A study of Mus musculus with 6 samples.

Results

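The stretch of mouse chromosome 7 from 20 to 30 Mb on the mm7 build is described here across 2 groups of mammary carcinoma cells. Its members are the probes whose position in the scanner files starts inside these limits, without control spots and without probes whose gene name begins with Zfp, Rpl, Rps, Cox or Uqcr. This gave 332 probes with 247 gene names, out of 41174 probes on the array. The files list some genes under clone names, so 13 probes that RefSeq now names Zfp stayed among the members. A further 51 probes of the left-out families lie in the same stretch, and 2534 probes lie on the rest of chromosome 7. The stretch was chosen by the measured change between IRF7 and base-vector cells in these same 6 arrays, in which its probes were lower, so the changes of its members are given as a description, with no test of their own.

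The cells are 4T1.2, a metastatic line of mouse mammary tumour on a BALB/c background. The base-vector group holds 3 arrays of cells that carry the empty pMSCV retroviral vector, and the IRF7 group holds 3 arrays of cells that carry pMSCV with Irf7. Both groups thus share the vector, its viral promoter and puromycin selection, and in both the virus was made in HEK-293 packaging cells. In each group single-cell clones were grown after selection and several were pooled, and cells were cultured without further treatment. The labels describe independent experiments but do not say that the arrays of a group came from separate pools of clones, so the spread between them measures these arrays alone. Each array measured total RNA in 1 colour (Cy3), and DNA copy number was not measured.

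Genes that lie side by side on a chromosome share its copy number and, over shorter stretches, its chromatin, while each also answers to its own promoter and enhancers. IRF7 is a transcription factor of the interferon system that binds interferon response elements, and its own gene also lies on chromosome 7, outside the stretch. The stretch holds many genes active in most cells, among them kinases, transcription elongation factors and proteasome subunits. It also holds genes of the urokinase receptor and Ly6 family, whose proteins sit on the cell surface and take part in adhesion and local proteolysis.

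Promoters are shown first for 5 genes above background on all 6 arrays, the 3 that were highest in IRF7 cells relative to base vector and the 2 that were lowest. Each run is the 250 bases before the first listed start of the gene, from RefSeq on GRCm38.p6, written 5′ to 3′ on the gene's strand. Plaur encodes the urokinase receptor (plus strand, chr7:24462233-24462482), Lypd3 a related surface protein with Ly6 domains (plus strand, chr7:24636320-24636569), and Fxyd5 the sodium pump regulator dysadherin (minus strand, chr7:31042332-31042581). Gmfg encodes glia maturation factor gamma, which acts on branched actin (plus strand, chr7:28437219-28437468), and Ppp1r14a encodes CPI-17, an inhibitor of myosin phosphatase (plus strand, chr7:29289070-29289319). Capitals mark matches to the interferon response core GAAANNGAAA, the AP-1 site TGANTCA or the GC box GGGCGG, searched on both strands, with overlapping matches each counted.
Plaur: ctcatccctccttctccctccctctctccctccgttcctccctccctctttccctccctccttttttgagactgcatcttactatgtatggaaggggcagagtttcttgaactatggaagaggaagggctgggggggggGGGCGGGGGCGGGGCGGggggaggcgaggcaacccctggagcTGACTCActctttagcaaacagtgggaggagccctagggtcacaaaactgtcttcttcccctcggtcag
Lypd3: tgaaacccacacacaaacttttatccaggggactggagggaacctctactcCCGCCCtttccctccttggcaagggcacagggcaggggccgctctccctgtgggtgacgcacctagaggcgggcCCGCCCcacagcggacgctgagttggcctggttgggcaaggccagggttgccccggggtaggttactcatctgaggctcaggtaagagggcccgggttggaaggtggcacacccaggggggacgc
Fxyd5: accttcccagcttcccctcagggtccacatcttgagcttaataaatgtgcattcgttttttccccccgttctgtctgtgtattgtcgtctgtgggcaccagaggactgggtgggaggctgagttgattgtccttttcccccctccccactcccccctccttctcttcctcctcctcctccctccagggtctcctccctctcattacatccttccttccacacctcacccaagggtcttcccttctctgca
Gmfg: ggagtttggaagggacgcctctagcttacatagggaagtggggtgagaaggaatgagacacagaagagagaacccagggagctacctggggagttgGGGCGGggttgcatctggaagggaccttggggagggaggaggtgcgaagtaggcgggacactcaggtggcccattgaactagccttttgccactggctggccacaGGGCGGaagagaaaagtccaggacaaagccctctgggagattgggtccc
Ppp1r14a: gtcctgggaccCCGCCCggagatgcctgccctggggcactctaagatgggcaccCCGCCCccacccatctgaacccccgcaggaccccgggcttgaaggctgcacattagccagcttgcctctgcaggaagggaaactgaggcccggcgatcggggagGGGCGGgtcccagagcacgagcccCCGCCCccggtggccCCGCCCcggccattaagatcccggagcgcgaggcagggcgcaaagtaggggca

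None of the 5 runs held GAAANNGAAA. Plaur held 1 AP-1 match and 3 GC boxes, Lypd3 held 2 GC boxes, Gmfg 2 and Ppp1r14a 5, and Fxyd5 held none of the 3 motifs. RefSeq had a promoter for 121 of the 155 member genes with a measured change. GAAANNGAAA was in 4 of these 121 (Haus5, Pld3, Xrcc1 and Zfp420, 3.3%) against 2.6% of the 9935 promoters of all tested genes, and the AP-1 site was in 8 (6.6%) against 4.5%. The GC box was in 74 of them (61.2%) against 58.4% of all tested genes. A match in these letters is a description of the window searched and says nothing of binding.

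Irf7 itself, at chr7:137682028-137682378 (mm7), was the check of the labels. Its processed signal was 246, 195 and 211 on the base-vector arrays and 4486, 4963 and 5012 on the IRF7 arrays, a 19.4-fold difference with no overlap. The 6 arrays were alike in quality, with 54.3% to 59.7% of spots well above background and a 75th percentile of signal between 1148 and 1458. Base-vector replicate 1 and all 3 IRF7 arrays were on slide 1 and base-vector replicates 2 and 3 on slide 2. The value within slide 1 is therefore given for some genes where it turned a direction or ended a call, and for some described at length. It is not given for others, among them Tgfb1, NAP123484-1, Gmfg, Ech1, Bckdha, Ltbp4, Sbsn and Med29. A call given without it is not thereby said to hold within slide 1. Of 8 markers of mammary epithelial carcinoma, Krt8, Krt18, Krt7, Epcam, Cdh1 and Cldn3 were above background on all 6 arrays, and Krt19 and Cldn4 were above it on 0. The 4 muscle markers were above background on 0 arrays, as were Pecam1, Kdr, Itgam and Col1a1, while probes for Cd3e, Cdh5 and Pdgfra were above background on all 6.

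A probe was tested where it was well above background on at least 3 of the 6 arrays, which 194 member probes of 155 genes met (58.4% of the members, against 57.1% of all probes). Of the other 138 members, 113 were above background on 0 arrays and 25 on 1 or 2. The level of a probe is log2 of its processed signal minus that of the array's 75th percentile, and a change is the IRF7 mean minus the base-vector mean of these levels, with its standard error (SE) from limma and n = 3 arrays a group. Per-array values below are scaled signals, the processed signal divided by the array's 75th percentile, and they compare arrays for 1 probe, not probes with each other. In such bulk RNA, fewer cells that express a gene and less RNA per cell cannot be told apart.

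Most of the stretch was lower in the IRF7 cells, and the median fall was modest. The median change of the 194 tested members was -0.46 (quartiles -0.70 and -0.17), a 1.38-fold lower level, and 164 of them (84.5%) were below 0 against 47.9% of all tested probes. By limma's adjusted p under 0.05 over all 23518 tested probes, 142 members (73.2%) were called lower, where the background over all probes is 28.1%, and 11 (5.7%) were called higher, where the background is 30.6%. Nothing is read from these shares, because this contrast chose the stretch. The levels of the groups did not overlap for 147 members that were lower (background 31.6%) and 11 that were higher (background 34.4%). A change between -0.25 and -0.75 was seen for 94 members (48.5%, background 18.7%). Of the 194 members 20 were lower by 2-fold or more, against 579 of all 23518 tested probes and 106 of 1382 on the rest of chromosome 7. The size of the change varied, with an interquartile range of 0.54 against 0.48 over all tested probes.

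The decline was much the same on each IRF7 array. Set against the base-vector mean of each probe, the median member was at -0.46, -0.46 and -0.48 on the 3 IRF7 arrays and at -0.01, -0.01 and 0.02 on the base-vector arrays. Each base-vector array is itself part of that mean. Set against the mean of the other base-vector arrays alone, their medians were -0.02, -0.01 and 0.02. Probes on other chromosomes or without a position had medians of 0.03, 0.06 and 0.02 on the same IRF7 arrays. Within slide 1, where base-vector replicate 1 alone stood against the 3 IRF7 arrays and was assumed to vary like them, the median member was -0.45, with 127 called lower and 7 called higher.

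**Figure D1:**
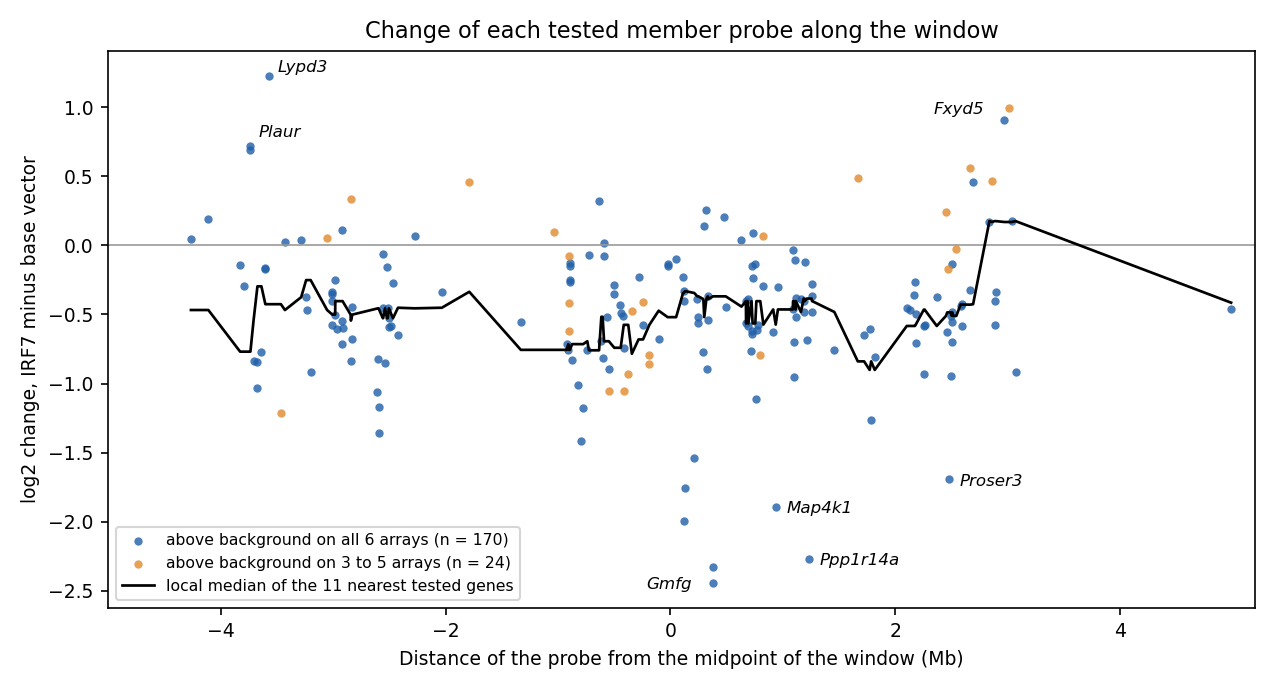
Log2 change (IRF7 minus base vector, y axis) of each of the 194 tested member probes against its distance in Mb from the midpoint of the stretch (x axis), coloured by the number of arrays on which it was above background. The black line joins, gene by gene, the median of the 11 nearest tested genes. The quartiles of the points are -0.70 and -0.17. Lypd3, Plaur and Fxyd5 lie above 0, and Gmfg, Ppp1r14a, Map4k1 and Proser3 lie far below the line.

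Along position, the bins of 1 Mb that held at least 20 tested probes had medians between -0.54 and -0.35. The median was -0.35 for the 22 tested probes from 21 Mb, -0.54 for 27 from 22 Mb, -0.51 for 40 from 24 Mb, -0.52 for 41 from 25 Mb, -0.48 for 22 from 26 Mb and -0.44 for 33 from 27 Mb. The other 4 bins of 1 Mb held 1 to 3 tested probes each and can carry no statement about a level. In them the medians were 0.12 for 2 probes from 20 Mb, 0.09 for 3 from 23 Mb and 0.18 for 3 from 28 Mb, and the probe from 29 Mb was at -0.46. Few probes in these bins were above background, and the array itself held 12, 22, 11 and 1 member probes there.

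At the lower edge, the first tested member was TC1517077 (chr7:20734358-20734417), with a change of 0.04 (SE 0.13), followed by NAP123484-1 at 0.19 (SE 0.06). The nearest tested probes outside that edge were Igsf23 (chr7:17620623-17621604, -0.14), AK040334 (-0.15) and Pvr (0.01). At the upper edge the last members were Gramd1a (chr7:28072324-28072383, -0.91) and LOC673028 (chr7:29989652-29989711, -0.46). The next tested probes outside were ENSMUST00000081163 (chr7:30311395-30311454, -0.35), LOC627004 (-0.59) and NAP027099-1 (-0.22). Negative changes thus went on past the upper limit, and the limits of the stretch are round positions.

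The rest of chromosome 7 was also lower. Its 1382 tested probes had a median of -0.38, a difference from the stretch that was not tested, with 79.7% below 0, 910 called lower and 103 called higher, while the 21903 other tested probes had a median of 0.04. In blocks of 10 Mb, with the left-out families counted, chromosome 7 medians ran from -0.21 (100 to 110 Mb) to -0.57 (60 to 70 Mb), and the block of the stretch, with 233 probes, was at -0.49. Among the 252 blocks of the genome with at least 20 tested probes it had the rank 3 from the lowest, and 13 of the 15 chromosome 7 blocks lay below every block of another chromosome. The lowest block elsewhere was at -0.31. The 39 tested probes of the left-out families inside the stretch had a median of -0.73, with 37 below 0.

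**Figure D2:**
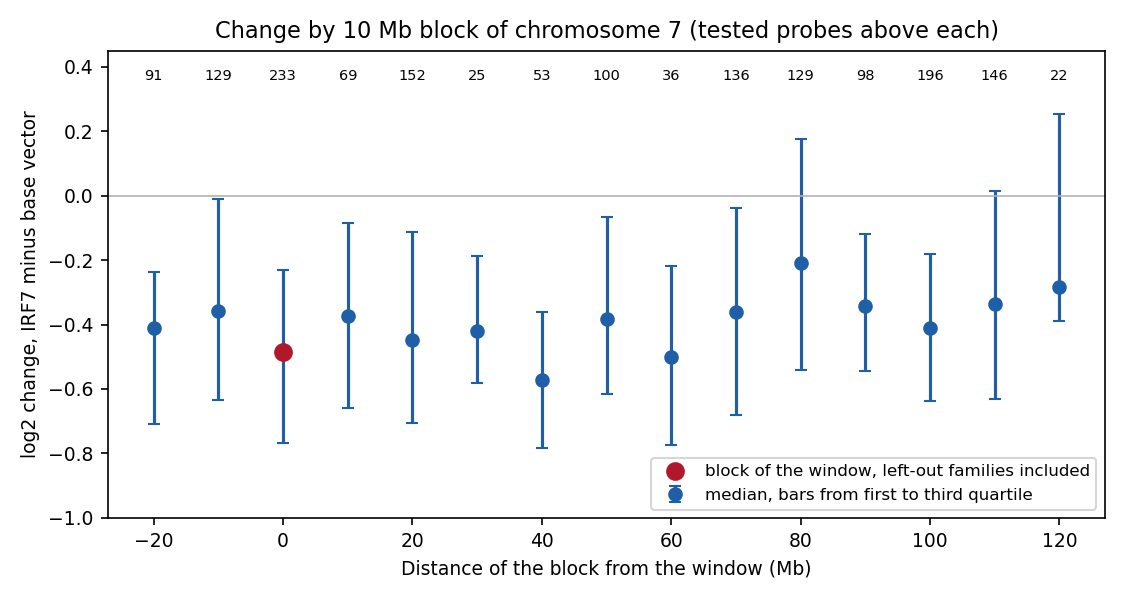
Median log2 change (IRF7 minus base vector, y axis) of the tested probes in each 10 Mb block of chromosome 7, plotted against the distance of the block from the stretch in Mb (x axis), with bars from the first to the third quartile and the number of probes above. The block of the stretch (red, -0.49) lies within the range of the chromosome's other blocks, from -0.57 to -0.21.

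**Figure D3:**
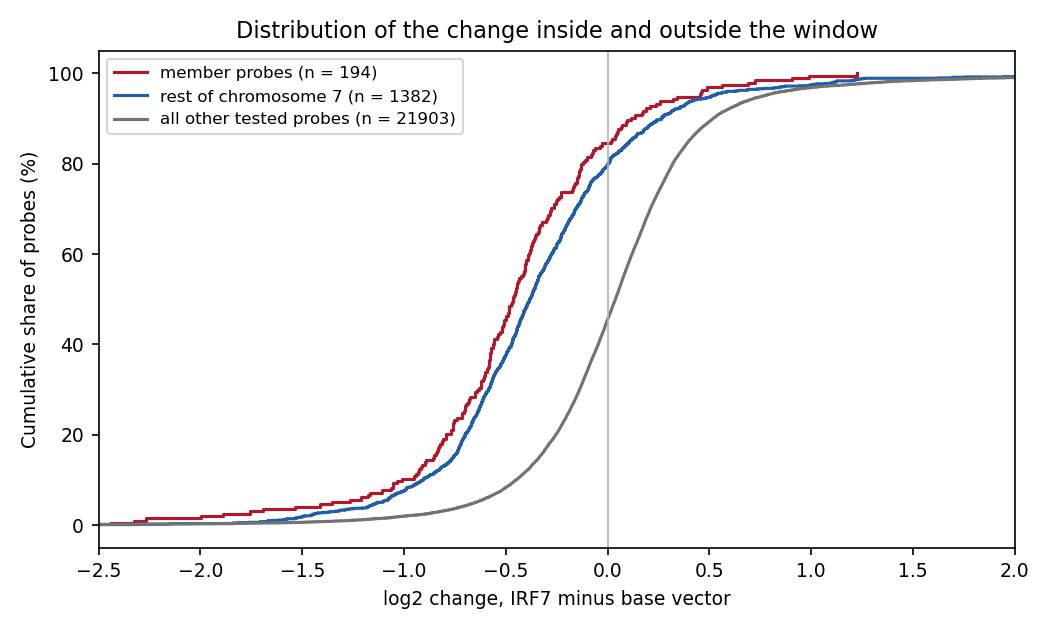
Cumulative share of tested probes (y axis, percent) at or below each log2 change (x axis) for the 194 members, the 1382 probes on the rest of chromosome 7 and the 21903 other probes. The member curve runs close to and left of that of the rest of the chromosome, with medians of -0.46 and -0.38, and both lie left of the other probes at 0.04.

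The median change was below 0 in each brightness class and on both strands, and its size differed between brightness classes. The 65 dimmest members by base-vector level had a median of -0.37, the middle 64 had -0.57 and the 65 brightest had -0.45. Probes below 0 numbered 45, 59 and 60 in that order. The share called lower differed more, at 28, 55 and 59 probes in that order. Across the 194 probes, which share the 6 arrays, Spearman's rho between base-vector level and change was -0.10. Members on the plus strand (96) had a median of -0.52 and those on the minus strand (98) had -0.44.

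Probes of the same gene mostly gave the same value. Of 29 genes with at least 2 tested probes, 25 had all probes below 0, Plaur had all above 0, and Cic, Rinl and Sertad1 had probes of both signs. The range between a gene's probes had a median of 0.16 on the log2 scale, and it was under 0.25 for 23 genes. It was over 0.75 for Cic, a transcriptional repressor downstream of growth factor receptors, with -0.54, -0.71 and 0.11 (the last on a dim probe, at -0.11 within slide 1), and for Dyrk1b, a protein kinase of quiescent cells. Dyrk1b probes at chr7:25119896-25120287 and chr7:25120569-25120628 were at -0.40 and -0.33, but the probe at chr7:25121044-25121103 was at -2.00 (SE 0.04). Its scaled signal was 0.533, 0.548 and 0.561 on the base-vector arrays and 0.133, 0.137 and 0.142 on the IRF7 arrays. The next tested probe, AI426330, starts 9.99 kb further on and was at -1.76. Which transcript the last Dyrk1b probe reads was not tested.

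**Figure D4:**
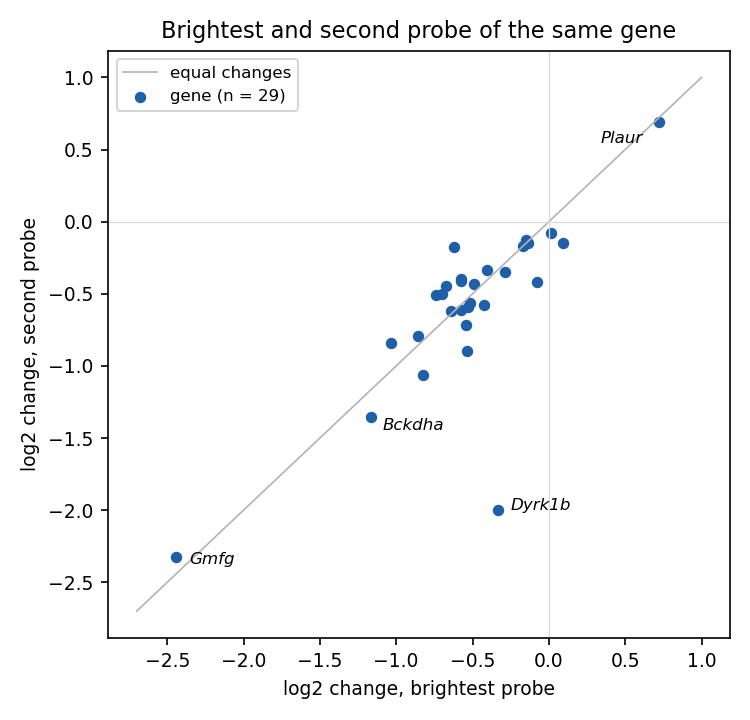
Log2 change (IRF7 minus base vector) of the second-brightest probe (y axis) against that of the brightest (x axis) for the 29 genes with at least 2 tested probes, with the line of equal changes. Most genes lie near the line, Plaur is the gene with both values clearly above 0, and Dyrk1b (-0.33 and -2.00) lies far off it.

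Departure from the local level was measured for each gene by its brightest probe, as its change minus the median of the 11 nearest tested genes on the chromosome. The local median had quartiles of -0.58 and -0.40 over the stretch and ran from -0.90 to 0.18. A gene departed where this was 0.5 or more and all its probes lay on that side. This held for 42 of the 155 genes (27.1%), where the background over all 15250 tested genes with a position is 19.8%. Upward departures numbered 26 (16.8%) and downward ones 16 (10.3%), against 1526 and 1494 among all genes. On the rest of chromosome 7 the counts were 139 of 955 genes (14.6%) and 110 (11.5%). The median size of the departure, either way, was 0.30 in the stretch and 0.30 on the rest of the chromosome, against 0.23 over all genes. Just short of the threshold were Ceacam10 (0.49), Fbxo27 (0.48), Upk1a (0.48) and Smg9 (0.47) upward and, downward, a probe with no gene name (-0.48) and Xrcc1 (-0.47). Just past it were TC1517077 (0.51) and Lsr (-0.52).

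Of the 26 upward genes, 16 were above background on all 6 arrays, and 10 had IRF7 levels that lay wholly above the base-vector levels. Over all tested probes, 34.4% lay wholly above in this way. Departing genes were picked by their change, so nothing is read from this count. The largest departure was that of Lypd3 (chr7:21429010-21429069), a surface protein known from squamous epithelium. Its scaled signal was 1.37, 1.37 and 1.47 on the base-vector arrays and 3.34, 3.27 and 3.22 on the IRF7 arrays. All 3 IRF7 arrays stood well clear of the base-vector arrays, and the change was 1.22 (SE 0.04, 2.34-fold) where the local median was -0.43.

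Plaur lies 167 kb before Lypd3 and binds urokinase at the cell surface, where plasmin is formed. Its brighter probe (chr7:21263487-21263546) read 15.8, 15.4 and 16.2 on the base-vector arrays and 26.1, 25.4 and 26.8 on the IRF7 arrays. Both of its probes were higher on all 3 IRF7 arrays than on any base-vector array, by 0.72 (SE 0.04, 1.65-fold) and 0.69 (SE 0.03, 1.61-fold), against a local median of -0.77. The 6 other tested genes within 0.1 Mb of this pair were all below 0. They were Kcnn4 (-0.14), Smg9 (-0.30), Cadm4 (-0.84), Irgq (-1.03), Xrcc1 (-0.77) and Ethe1 (-0.17), whose median was -0.53. Within slide 1 Lypd3 was at 1.25 and the Plaur probes were at 0.73 and 0.69.

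Fxyd5 (chr7:27972585-27972644), near the upper end, encodes a sodium pump regulator that weakens cell contacts. It read 5.44, 5.52 and 5.67 on the base-vector arrays and 10.5, 10.3 and 10.3 on the IRF7 arrays. The groups were far apart, at 0.90 (SE 0.03, 1.87-fold), and the value within slide 1 was 0.93. The other FXYD genes of the stretch, Fxyd1, Fxyd3 and Fxyd7, were not tested, since they were above background on too few arrays. The genes around it were mixed, with a local median of 0.17. Of its 11 nearest tested genes 6 were above 0, and 3 of these (Lgi4, Hamp2 and Gapdhs) were above background on only 3 arrays.

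Smaller differences upward were seen for Sbsn, Cnfn and Med29. Sbsn, which encodes the secreted suprabasin, read 0.114, 0.129 and 0.121 on the base-vector arrays and 0.162, 0.171 and 0.165 on the IRF7 arrays, a change of 0.46 (SE 0.05) with no overlap. Cnfn, which encodes cornifelin of the cornified envelope, was close to background, at 0.0407, 0.0356 and 0.0331 against 0.0479, 0.0495 and 0.0410. Its change of 0.34 (SE 0.10) was 0.18 within slide 1. Med29, a subunit of Mediator, read 0.159, 0.153 and 0.170 against 0.192, 0.197 and 0.187, a change of 0.26 (SE 0.05) on its only tested probe, with no overlap.

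Other genes departed upward while staying near their base-vector level among lower neighbours. Sertad1, a transcriptional coregulator of the cell cycle, was at 0.02 (SE 0.05) and -0.08 (SE 0.04) on its probes where the local median was -0.69, and the sign of the first turned with quantile or median scaling. Its brighter probe read 3.21, 3.20 and 3.49 against 3.29, 3.30 and 3.41, so the groups overlapped. Kcnn4, the intermediate calcium-activated potassium channel, was at -0.14 (SE 0.04) against a local median of -0.77, and at 0.06 with no scaling between arrays and -0.09, not called, within slide 1. Snrpa, a spliceosome protein of the U1 particle, had 4 probes from -0.26 to -0.13 where the local median was -0.76, and its brightest probe was at 0.05 with no scaling and -0.17, not called, within slide 1. Sptbn4, a spectrin of axons, was at -0.07 (SE 0.09), and at 0.13 with no scaling and 0.06 within slide 1.

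The rest of the upward genes with a gene name were dim. Lgi4, a secreted factor of myelinating glia, was above background on the 3 IRF7 arrays alone, and no fold is given for it. Its scaled signals were 0.0311, 0.0318 and 0.0260 against 0.0707, 0.0249 and 0.114, so IRF7 replicate 2 lay just below the base-vector range while the other IRF7 arrays lay above it. Cyp2a4, a cytochrome P450 of steroid metabolism, and Gapdhs, the glycolytic enzyme of sperm, were likewise above background on the IRF7 arrays alone. The groups did not overlap for Cyp2a4, which was at least 1.12-fold higher, at 0.46 on the log2 scale and 0.36, not called, within slide 1. For Gapdhs they overlapped. Catsperg2, a part of the sperm calcium channel, was at 0.49 with an SE of 0.44, but at -0.38 within slide 1 and -0.01 with normexp background correction. Prodh2 was at 0.24 (SE 0.27), but at -0.26 and -0.02 in the same order, and Capn12 at 0.07 (SE 0.10), but at -0.04 and -0.08. Sycn was at 0.21 (SE 0.10). Within slide 1 Catsperg2, Prodh2, Gapdhs, Mia and Sycn no longer departed. Mia had probes at -0.08, -0.42 and -0.62, and Rinl at 0.09 (-0.03 within slide 1), -0.15 and -0.24, all above their local medians. The remaining 7 upward members carry clone or locus names in the array's annotation, among them TC1517077.

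**Figure D5:**
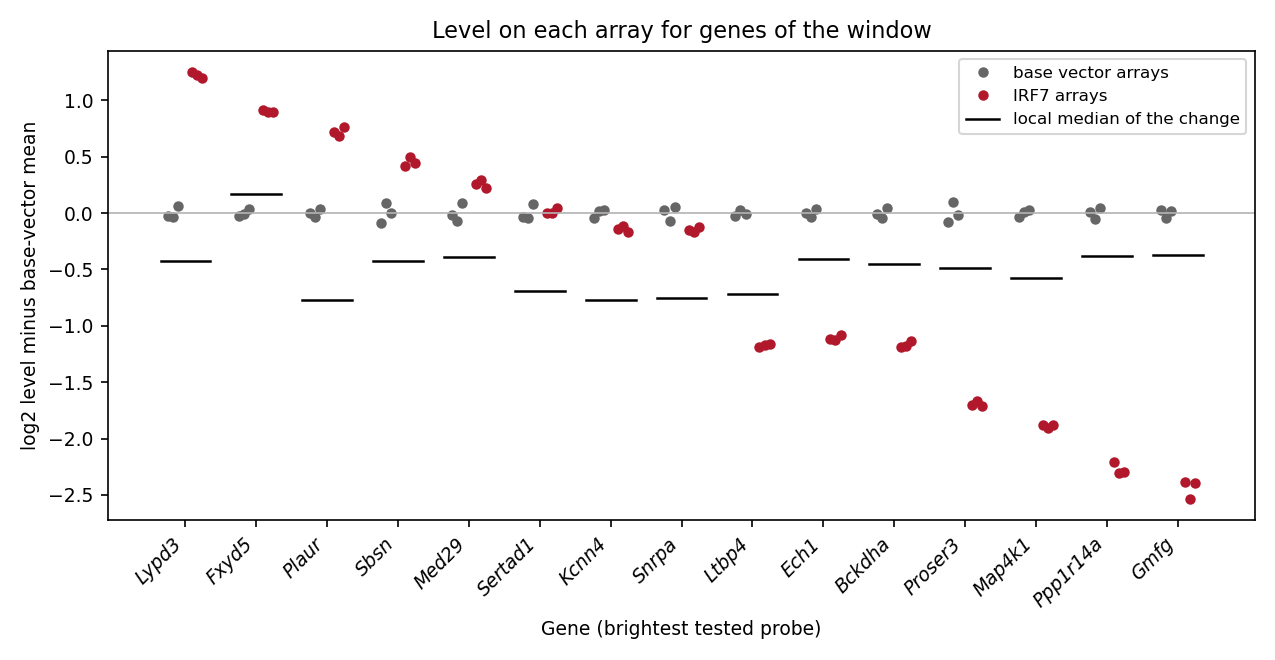
Log2 level on each array minus the base-vector mean (y axis) for the brightest tested probe of 15 genes of the stretch (x axis), with 3 base-vector arrays in grey and 3 IRF7 arrays in red. The black bar is the median change of the 11 nearest genes. Lypd3 (1.22), Fxyd5 (0.90) and Plaur (0.72) lie above 0 on all 3 IRF7 arrays, Sertad1 stays near 0, and Gmfg is lowest at -2.44.

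On the downward side, 15 of the 16 genes were above background on all 6 arrays, and 15 had IRF7 levels wholly below the base-vector levels. The share wholly below over all tested probes was 31.6%, and these genes too were picked by their change. Gmfg (chr7:25380360-25380419) was the lowest of them. It read 0.899, 0.859 and 0.898 on the base-vector arrays and 0.169, 0.153 and 0.168 on the IRF7 arrays. The change was -2.44 (SE 0.05, 5.42-fold lower), and its second probe, at chr7:25375597-25377157, was at -2.33 (SE 0.06, 5.02-fold lower). The groups lay far apart on both, and the local median was -0.37.

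Ppp1r14a (chr7:26230791-26230851) read 0.448, 0.431 and 0.460 against 0.0967, 0.0901 and 0.0911, a change of -2.27 (SE 0.04, 4.82-fold lower). Map4k1 (chr7:25937656-25937715), a kinase best known from blood cells that acts upstream of JNK, read 1.22, 1.26 and 1.27 against 0.338, 0.333 and 0.340, a change of -1.89 (SE 0.03, 3.71-fold lower). Proser3 (chr7:27481251-27481310) read 0.571, 0.643 and 0.593 against 0.185, 0.189 and 0.184, a change of -1.69 (SE 0.05, 3.23-fold lower). All 3 IRF7 arrays were below all base-vector arrays for each of these genes, and within slide 1 the changes were -2.28, -1.86 and -1.62 in that order.

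Ech1 and Bckdha were bright and also stood below their neighbours. Ech1 (chr7:25765229-25765389), an isomerase of unsaturated fatty acid oxidation, read 6.72, 6.56 and 6.90 against 3.1, 3.08 and 3.17. Its change was -1.11 (SE 0.03). Bckdha (chr7:22403831-22403890), a subunit of the branched-chain ketoacid dehydrogenase, read 8.89, 8.67 and 9.22 against 3.91, 3.93 and 4.07, with changes of -1.17 (SE 0.04) and -1.36 (SE 0.03) on its probes. The levels did not overlap for either gene.

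Irgq, of the immunity-related GTPase family, was at -1.03 (SE 0.05) and -0.84 (SE 0.04). Grik5, a kainate receptor subunit, was at -0.92 (SE 0.03), and Numbl, an endocytic adaptor of the Notch pathway, was at -1.41 with the large SE of 0.37 and at -1.08, not called, within slide 1. Cd177, a neutrophil surface protein of the Ly6 family, was above background on 4 of 6 arrays, at -1.21 with an SE of 0.74, and its groups overlapped. Its direction turned within slide 1, to 0.42. Cd177, Numbl and Lsr no longer departed there. Gramd1a (-0.91, SE 0.03), Usf2 (-0.58, SE 0.03) and Lsr (-0.34, SE 0.03) counted as departing beside the mixed genes around Fxyd5, where their local median was 0.18. They encode a sterol transfer protein, an E-box transcription factor and a receptor of tricellular junctions. The remaining downward members carry clone or locus names. They were AI426330 (-1.76), LOC434156 (-1.54) and 1110035H17Rik (-0.95), with departures of -1.42, -1.19 and -0.55.

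Some genes were far down without standing apart by 0.5 from lower neighbours. Ltbp4 (chr7:24224015-24224074), which binds latent TGF-beta in the matrix, read 18.6, 19.3 and 18.8 against 8.31, 8.38 and 8.43, a change of -1.17 (SE 0.03). Of the 13 probes that RefSeq now names Zfp, 10 were tested, for 8 zinc finger genes, and they ran from -1.26 to -0.41. The lowest was Zfp940 (SE 0.06), 9 were called lower, and the 184 members without them had a median of -0.45, an alternative chosen after seeing the data.

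Described by role, the lists below hold members of the stretch, and each gene is counted by its brightest probe. Over all 15414 tested genes, 28.7% were called lower and 31.5% higher, with a median change of 0.03. Signalling genes of growth factors, receptors and kinases were lower in 23 of 26 tested, with 0 higher and a median of -0.61. Among them Akt2, a kinase of insulin signalling, was at -0.49 (SE 0.04) on its brighter probe, and Erf, an ETS repressor under ERK control, at -0.60 (SE 0.06). Axl, a receptor kinase for Gas6, was at -0.28 (SE 0.03), reading 6.26, 6.08 and 6.38 against 5.10, 5.13 and 5.23. Tgfb1, the secreted growth factor, was at -0.16 (SE 0.04). The 3 not called were Sertad1, Arhgef1 (0.04) and Rasgrp4 (-0.04).

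Genes of DNA repair, chromatin and transcription were lower in 8 of 9 tested, with a median of -0.54, and the exception was Med29. Xrcc1, the scaffold of single-strand break repair, read 14.4, 14.5 and 14.8 against 8.30, 8.58 and 8.77, a change of -0.77 (SE 0.03). The elongation factors Supt5 (-0.52 and -0.56) and Paf1 (-0.54 and -0.90) were lower on each of their probes, and the polymerase subunit Polr2i was at -0.26 (SE 0.04). RNA processing and translation genes were lower in 8 of 9 with a median of -0.44. Exosc5 of the RNA exosome was at -0.46 (SE 0.03), Rbm42 at -0.44 (SE 0.03) and Mrps12 of the mitochondrial ribosome at -0.40 (SE 0.05), while Hnrnpl, at -0.14, was not called.

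A list drawn up around protein turnover was mixed, since it also holds Coq8b (-1.01), Blvrb (-0.69), Tbcb (-0.36) and Tmem147 (-0.32), which act in coenzyme Q and heme metabolism, tubulin folding and membrane protein insertion. Over this mixed list 8 of 10 were lower with a median of -0.37. Its proteasome subunits were Psmd8 at -0.38 (SE 0.04) and Psmc4 at -0.14 (SE 0.05) and -0.15 (SE 0.04), and both Psmc4 probes turned to 0.06 and 0.05 with no scaling between arrays and were not called within slide 1 (-0.16 and -0.15). Genes of the cytoskeleton and trafficking were lower in 8 of 10 with a median of -0.47, among them Actn4, which crosslinks actin (-0.29, SE 0.04), and Syne4, which ties the nucleus to kinesin (-0.93, SE 0.04). A list drawn up around metabolism and mitochondria was mixed too, with the actin regulator Gmfg as its lowest gene, and Dedd2, a death effector domain protein (-0.40). The secreted Sbsn was its only gene called higher, while its highest change was that of the dim Gapdhs, which was not called. Over this list 10 of 15 were called lower with a median of -0.40. Ethe1, a sulfur dioxygenase, was at -0.17 (SE 0.05) on both probes, and both turned to 0.03 with no scaling and were not called within slide 1 (-0.17 and -0.12).

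The lists with many dim members differed from these. Of 10 tested surface and adhesion genes 4 were lower and 2 (Plaur and Lypd3) were higher, with a median of -0.05. The lower ones were Cadm4 (-0.84), Lgals7 (-0.79), Lgals4 (-0.57) and Lsr (-0.34). Of 8 ion channel and pump genes 5 were lower and 2 (Fxyd5 and Cnfn) were higher, with a median of -0.22, where Cnfn is no channel but a cornified envelope protein. The channel gene Kcnk6 was at -0.39 (SE 0.03). These differences between lists were not tested.

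Several families of the stretch gave almost no signal in these cells. The 6 probes for vomeronasal receptors and the 6 for Nlrp genes were untested, with 5 of each above background on 0 arrays. Of 18 probes for cytochrome P450 family 2, many of whose enzymes act in liver and lung, 14 were above background on 0 arrays and 3 were tested. Cyp2s1 was at -0.65 (SE 0.05), and Cyp2b19 at -0.56 (SE 0.71) on a probe with 1 base-vector array far above the others, at 0.208 against 0.0440 and 0.0318, and its change was 0.04 within slide 1. The only probe for an interferon of the stretch, that of interferon lambda (Ifnl3), was above background on 0 arrays in either group. Likewise 5 of 6 probes for the carcinoembryonic antigen family were above background on 0 arrays, and Cd22 and Cd79a of B cells and Tyrobp and Hcst of myeloid and natural killer cells were not above background on any array.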

How the data were processed

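Per the labels' protocols, total RNA was amplified into Cy3-labelled cRNA and hybridised to 6 single-colour Agilent arrays, and per the submitters' processing notes Agilent Feature Extraction 9.5.3.1 was used. The deposited values are linear intensity, background-subtracted within each array with no scaling between arrays, per the file headers. Outlier spots (111 to 121 an array) were left out and spots of a probe averaged. Levels were log2 intensity minus each array's 75th percentile. Groups were compared in R 4.3.3 with limma 3.58.1 (lmFit, then eBayes), without a block, on 23518 probes, with Benjamini-Hochberg adjustment at 0.05. The number of arrays limits precision. Names came from the RefSeq gene table (GRCm38.p6) for 287 members, and 45 kept the name in the files. Coordinates of probes are those of the files (mm7). Python 3.11.15, pandas 2.3.3 and matplotlib 3.10.9 did the rest, and the fit and the local median were tested on simulated data.

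Members, lists and rules were chosen with earlier results of these data known. Genes were named where they departed upward from the local level, were among the 10 largest downward departures, the 8 largest falls or the 8 largest rises without overlap, had the highest signal in a list (up to 4), had probes that disagreed, or lay at an edge. Clone and locus names were left out of these choices, except at an edge. A few more, such as Tgfb1, Xrcc1, ENSMUST00000053562, the genes beside Plaur and the downward members with clone or locus names, were chosen after their values were seen.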

Additional observations from a re-analysis of the deposited data

How the results depend on the processing

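Counts of members called lower or higher, their median change and the numbers of genes that departed from the local level were recomputed under 22 other settings, 1 choice at a time. The median stayed below 0 in each, but the members were chosen for being lower in these arrays. Settings that changed only the neighbours or the departure threshold reuse the main fit, so their median is the same by construction. Slide as a fixed block and slide 1 alone give the same changes. With normexp background correction 7 members were called higher, the median was -0.41 and 16 genes departed upward. With quantile normalization the median was -0.49, with median centring -0.50, and with only probes above background on all 6 arrays -0.48. With no scaling between arrays 92 members were called lower and the median was -0.27, but the median of all probes was then 0.22. With no filter on dim probes the median was -0.38, with 40 genes departing upward and 28 downward. With slide as a fixed block, and on slide 1 alone, 7 were called higher and the median was -0.45, and 19 of the 26 upward and 13 of the 16 downward departures were kept. Without the members now named Zfp, an alternative chosen after seeing the data, the median was -0.45. At a departure threshold of 0.75, 11 genes departed upward and 9 downward. Leaving out 1 array at a time gave 131 to 142 called lower, 8 to 15 higher (15 without base-vector replicate 1), a median of -0.48 to -0.46, and 26 to 30 genes upward and 13 to 17 downward. The deviations of same-numbered arrays from their group means had correlations of 0.03, 0.23 and 0.22. Those of differently numbered arrays ran from -0.21 to 0.02. The main fit took no pairs, and whether same-numbered arrays share an effect was not tested. With a replicate block, 144 were called lower, 10 higher, and the same 26 and 16 genes departed.

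Among 85 named probes, 41 values under other settings changed sign, 33 under other processing and 8 with 1 array left out, each for a probe that was dim or within 0.2 of 0 or had a large SE. With normexp these were Capn12 (-0.084), Rinl (-0.0018), Prodh2 (-0.0176) and Catsperg2 (-0.0107). Sertad1 was at -0.0269 with quantile and -0.0173 with median scaling. With no scaling the values were 0.0321 and 0.0314 for Ethe1, 0.12 for Mia, 0.0499 for Rinl, 0.13 for Sptbn4, 0.0507 and 0.0691 for Snrpa, 0.12 for Sertad1, 0.0598 for Kcnn4 and 0.0514 and 0.0605 for Psmc4. With slide as a block, and on slide 1 alone, they were -0.0409 for Capn12, 0.0622 for Sptbn4, -0.0284 for Rinl, -0.11 for Cic, -0.26 for Prodh2, 0.0359 for Cyp2b19, 0.42 for Cd177 and -0.38 for Catsperg2. These values are the same under both settings and were counted under each. Leaving out 1 array at a time gave -0.1966 to 0.0361 for Mia, -0.0061 to 0.0574 for Sertad1, -1.09 to 0.27 for Cyp2b19, -0.3127 to 0.0427 for Rinl and -0.0261 to 0.1526 for Capn12. The cause of these changes was not tested.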
